A study of Mus musculus with 2 samples.

Results

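The genes described here are 10 known transcriptional outputs of FGF-ERK signalling, read from RNA of 1 Dullard+/- and 1 Dullard-/- mouse embryo at E7.5. They are the Sprouty genes *Spry1*, *Spry2* and *Spry4*, the Sprouty-related genes *Spred1* and *Spred2*, the phosphatase genes *Dusp4* and *Dusp6*, the ETS factor genes *Etv4* and *Etv5*, and *Il17rd*, which encodes Sef. The members were chosen by name, and their probes were found through RefSeq accessions. All 10 had a probe well above background in both embryos, among 14770 genes that did. They were read by 11 probes, with a pair for *Etv4* and 1 for each of the other genes.

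Each whole embryo was labelled with Cy3 and hybridized to its own 1-colour Agilent whole-genome array. The labels give the strain of both as C57BL/6. The heterozygous embryo served as the reference, and both embryos carry at least 1 mutated copy of *Dullard*. The study made an allele lacking all exons and a *LacZ* allele lacking a part of them, and gave embryos of both kinds the name Dullard-/-. The sources used here do not say which of these alleles was on the arrays. Below, the Dullard+/- embryo is called the heterozygote and the Dullard-/- embryo the mutant. The *Dullard* (*Ctdnep1*) probe read 672 in the heterozygote and 144 in the mutant, with a log2 fold change of -2.11 ± 0.06, and was above background in both. Its place relative to the deleted exons was not tested. The paper detected no *Dullard* mRNA in Dullard-/- embryos of this age, by in situ hybridization or by Q-PCR. What the signal of 144 reads was not tested. With 1 embryo per genotype no test was possible, and each difference below is one between these embryos.

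FGF ligands bind receptor tyrosine kinases and, through the FRS2, GRB2 and SOS adaptors, load RAS with GTP, which starts the RAF, MEK and ERK kinase cascade. Active ERK phosphorylates ETS transcription factors, and among the genes then transcribed are inhibitors of the same pathway, so that the signal limits itself. In the gastrulating mouse embryo, FGF8 and FGF4 acting on FGFR1 are needed for cells to leave the primitive streak and to form mesoderm. The transcripts of the feedback genes are therefore in common use as read-outs of where ERK is active, although many of them respond to other signals as well.

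The scaled level used here is the background-subtracted signal of a probe divided by the 75th percentile of its array. That percentile was 286 in the heterozygote and 264 in the mutant. A log2 fold change is the scaled level of the mutant over that of the heterozygote. Signals are printed unscaled, so one that was slightly lower in the mutant can have a fold change slightly above 0. The error after ± is the SD of such differences among repeated spots of equally bright probes, and it shrinks with the root of a gene's probe count. It covers the array and not the spread between embryos. Different probes of 1 gene differed by more than this, with a pooled SD of 0.29 over 3747 genes. Brightness depends on the probe, so levels are compared within a probe and never between genes.

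The 10 genes did not differ together. *Il17rd* and *Spry1* were past 1.5-fold, both higher in the mutant, no member was lower by that much, and 6 of 10 lay within 1.1-fold. Past 1.5-fold were 7.29% of all measured genes, 3.92% on the higher side and 3.37% on the lower, and 47.2% lay within 1.1-fold, a limit chosen after the values were seen. The median log2 fold change was 0.03 over the members and 0.01 over all genes, with 5 members above 0 and 5 below. None of the 10 was 2-fold higher or lower, against 1.66% of all genes.

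The sequences upstream of a pair of members that were higher and of *Dusp6*, which was nearly equal, are shown because ETS factors act at such regions. They come from RefSeq promoter windows of GRCm38.p6, which reach from 250 bases before to 50 after a gene's start, on the plus strand for all 3. Bases after the start of the gene's first transcript are left out. Capitals mark GGAA, the core that ETS factors recognize, or its reverse complement.
Il17rd (chr14:27038751-27038963): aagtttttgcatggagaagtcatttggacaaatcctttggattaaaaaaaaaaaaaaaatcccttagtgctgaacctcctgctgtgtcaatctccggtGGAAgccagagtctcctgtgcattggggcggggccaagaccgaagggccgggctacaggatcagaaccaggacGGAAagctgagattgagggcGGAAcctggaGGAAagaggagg
Spry1 (chr3:37639697-37639946): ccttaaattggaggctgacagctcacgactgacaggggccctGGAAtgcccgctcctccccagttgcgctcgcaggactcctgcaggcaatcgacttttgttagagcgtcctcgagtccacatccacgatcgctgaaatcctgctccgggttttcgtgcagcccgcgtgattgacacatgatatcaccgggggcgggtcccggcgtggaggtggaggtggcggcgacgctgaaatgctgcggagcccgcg
Dusp6 (chr10:99262981-99263230): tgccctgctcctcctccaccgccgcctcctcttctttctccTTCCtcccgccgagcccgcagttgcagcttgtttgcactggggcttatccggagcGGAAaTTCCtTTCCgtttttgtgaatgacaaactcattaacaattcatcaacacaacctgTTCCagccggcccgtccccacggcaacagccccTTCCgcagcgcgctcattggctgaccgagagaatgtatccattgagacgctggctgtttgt
The core was present 4 times upstream of *Il17rd*, once upstream of *Spry1* and 6 times upstream of *Dusp6*. The full windows of 32851 promoters held a median of 3 copies on both strands, with quartiles of 2 and 5, and 96.0% held it at least once. Windows were at hand for 7 members, 8 windows in all, and *Dusp4*, *Etv4* and *Spry4* had none. The longer ETS letters CCGGAAG and CAGGAAG, searched on both strands, were in 0 of these 8 windows and in 8.86% and 13.3% of all windows, and the search for the short core was added after that. The matches are letters in a window, and no binding was measured.

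*Il17rd* had the largest log2 fold change of the 10. Sef, its product, is a membrane protein of the interleukin-17 receptor family that binds FGF receptors and holds back ERK signalling. Its probe (NM_134437) gave 1912 in the heterozygote and 2905 in the mutant, or 1.64-fold higher once scaled, at a log2 fold change of 0.72 ± 0.05. The spot was far from background, with a median pixel signal of 1746 over a local background of 14.5 in the heterozygote and of 2507 over 16 in the mutant. Of all genes, 97.5% had a lower log2 fold change. When the genes were split by signal into 4 bands of equal size, 13 of the 3693 genes in the brightest band, which holds *Il17rd*, had a higher one, and 0.704% of that band were 1.5-fold higher or more. *Il17rd* was past 1.5-fold in each of the 11 other ways of processing, at log2 fold changes of 0.59 to 0.75. Of these, keeping dim probes or outlier spots, the brightest probe and the mean of linear folds cannot change a gene with 1 bright probe. The other scalings, no scaling and the processed table move all genes by the same amount, or nearly so. Quantile normalization, loess and normexp remain, at 0.67, 0.69 and 0.59. The lowest value, with normexp, is just past the limit.

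The Sprouty genes differed unequally. Sprouty proteins block the path from the receptor to RAS and RAF. The *Spry1* probe (NM_011896) gave 115 and 161 in the heterozygote and the mutant, which is 1.52-fold higher after scaling (0.60 ± 0.08). It lies in the next to dimmest band, of which 4.79% were 1.5-fold higher or more. *Spry1* is just past the limit, and it was inside it without scaling (0.49), with the processed value table (0.57) and with normexp background correction (0.36). The *Spry4* probe (NM_011898) gave 59.2 and 68.5, a log2 fold change of 0.32 ± 0.11. The *Spry2* probe (NM_011897) gave 164 and 149, at -0.02 ± 0.08. *Spry2* was thus level between the embryos within its spot error, while the excess of *Spry4* exceeded its spot error but was near the SD between probes of a gene.

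**Figure D1:**
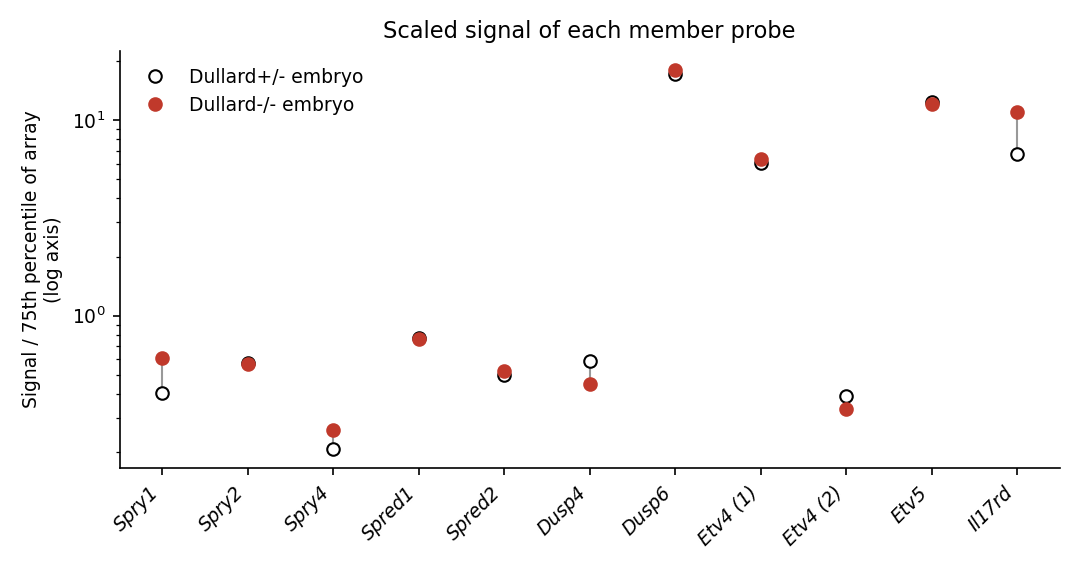
Signal of each member probe divided by the 75th percentile of its array (vertical log axis), in the heterozygote (open circles) and the mutant (filled circles), 1 embryo per genotype. The circles are clearly apart for *Il17rd*, *Spry1*, *Spry4*, *Dusp4* and the dimmer *Etv4* probe, labelled 2, and nearly coincide for the other probes. Heights cannot be compared between probes.

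The Spred genes were level. SPRED proteins bring neurofibromin, which switches RAS off, to the membrane. The *Spred1* probe (NM_033524) gave 219 and 202 in the heterozygote and the mutant, at a log2 fold change of -0.002 ± 0.07. The *Spred2* probe (NM_033523) gave 142 and 137, at 0.06 ± 0.08. Both lay within their spot error of 0, and so did the gap between them, 0.06 with an error of 0.11.

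The probes of the phosphatase genes differed from each other. DUSP6 is a cytoplasmic phosphatase that acts on ERK, and DUSP4 is a nuclear one that also acts on other MAP kinases. The *Dusp6* probe (NM_026268) gave 4939 in the heterozygote and 4792 in the mutant, a log2 fold change of 0.07 ± 0.04. The *Dusp4* probe (NM_176933) gave 168 and 119, which is 1.31-fold lower after scaling (-0.39 ± 0.08). *Dusp4* was the lowest member, and 7.73% of all genes had a lower log2 fold change, as did 132 of the 3692 genes of its signal band. The gap between *Dusp6* and *Dusp4* was 0.46 with a spot error of 0.09. This error leaves out the SD between probes of a gene, 0.29, and both genes have 1 probe. *Dusp4* stayed below 0 in each of the 11 other ways of processing, between -0.50 and -0.24, and it was inside 1.5-fold in each. As for *Il17rd*, some of these cannot change a gene with 1 probe, and others move all genes alike.

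The ETS factor genes were close to level. ETV4 and ETV5 are transcription factors of the PEA3 group, which carry FGF signals to target genes and are themselves induced by them. The *Etv5* probe (NM_023794) gave 3534 and 3193 in the heterozygote and the mutant, at -0.03 ± 0.04. The pair of *Etv4* probes (NM_008815) disagreed in sign. The brighter gave 1724 and 1681, at 0.08 ± 0.05, and the dimmer gave 111 and 87.8, at -0.23 ± 0.09. The gap between these probes, 0.31 with a spot error of 0.10, is about the SD between probes of a gene, and their mean was -0.08 ± 0.05.

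**Figure D2:**
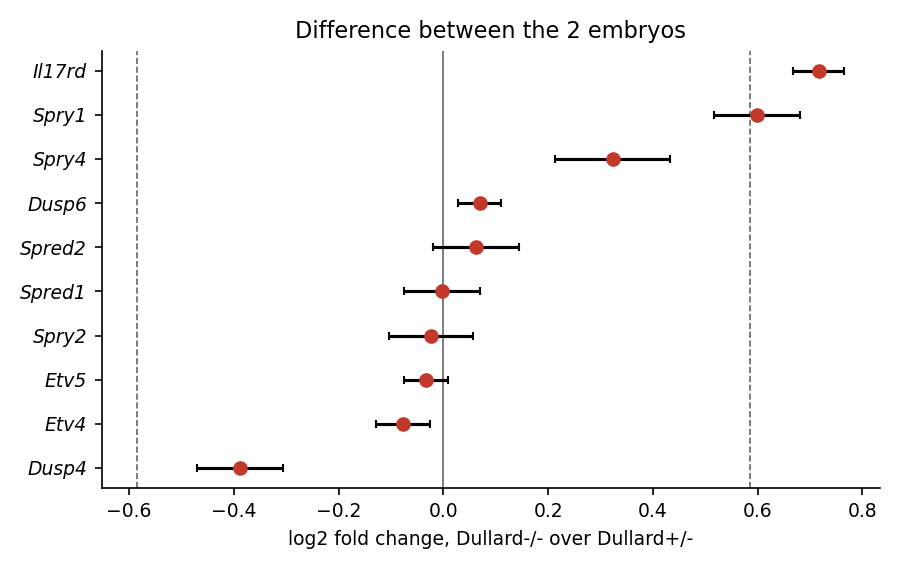
Log2 fold change, mutant over heterozygote (horizontal axis), of the 10 members in order of size, 1 embryo per genotype. Bars are the spot error on the array and dashed lines mark 1.5-fold. *Il17rd* at 0.72 and *Spry1* at 0.60 lie past the upper line, *Spry4* at 0.32 and *Dusp4* at -0.39 lie apart from 0, and the other 6 lie between -0.08 and 0.07.

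In the order of log2 fold changes, *Il17rd* and *Spry1* were 0.12 apart with a spot error of 0.10, so their order is not settled. *Spry1* and *Spry4* were 0.28 apart with an error of 0.14, and *Spry4* and *Dusp6* 0.25 apart with an error of 0.12. From *Dusp6* through *Spred2*, *Spred1*, *Spry2* and *Etv5* to *Etv4*, each neighbour differed from the next by less than the error of the gap. *Dusp4* lay 0.31 below *Etv4* with an error of 0.10. All these errors leave out the larger SD between probes of a gene, so they do not settle the order of the genes. The sign of these middle 6 depended on the processing. *Dusp6* (-0.04) and *Spred2* (-0.05) were below 0 without scaling. *Spry2* (0.01), *Spred1* (0.04) and *Etv5* (0.005) were above 0 with scaling to the median, and *Etv4* (0.08) with its brighter probe alone. Leaving out the scaling moved the median of all genes from 0.01 to -0.10, and every gene by the same amount. The distance to that median, 0.71 for *Il17rd* and 0.59 for *Spry1*, therefore cannot change with the scaling. The genes at least 1.5-fold higher were 53.8% of all genes past that size, and 33.2% without scaling, 68.6% with normexp and 41.2% without a filter on dim probes.

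**Figure D3:**
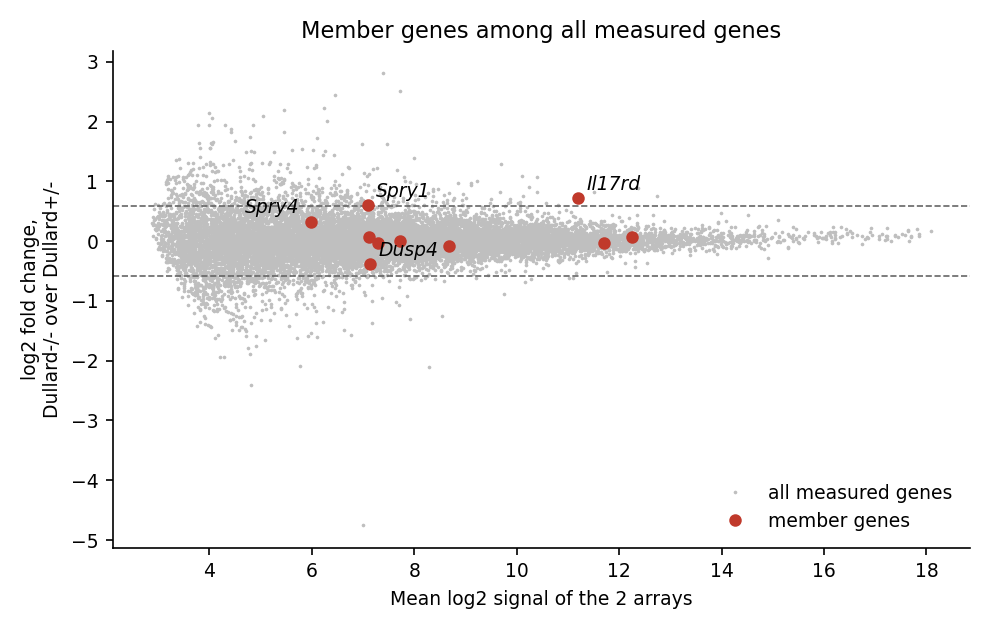
Log2 fold change, mutant over heterozygote (vertical axis), against the mean log2 signal of both arrays (horizontal axis) for the 14770 measured genes (grey) and the 10 members (filled circles). Dashed lines mark 1.5-fold. *Il17rd* at 0.72 stands above nearly all genes of its brightness, and *Spry1* at 0.60 lies in a denser part of the plot.

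The FGF ligands spread from -1.59 to 1.18. Of 15 measured ligand genes 3 were 1.5-fold higher or more in the mutant, against 3.92% of all genes. Lower by that much were 2, against 3.37%. The gene lists were chosen with earlier results of these data known, so such counts cannot show an excess. The median of the ligands was 0.10, and -0.01 without scaling. It counts *Fgf23*, read at 72837 in the heterozygote by 1 probe, while its other probe was above background in neither embryo. *Fgf10* was at 1.18 ± 0.07, from 140 to 295, *Fgf8* at 0.94 ± 0.09 and *Fgf5* at 0.89 ± 0.04, while *Fgf4* was at -1.59 ± 0.12. *Fgf18*, a dim gene named after its value was seen, was at -0.85 ± 0.25, from 21.0 to 10.8. Among 8 measured receptors and cofactors, with a median of 0.08 (-0.04 without scaling), *Flrt1* alone passed 1.5-fold. It is a dim gene at 0.60 ± 0.18 that encodes a membrane partner of the receptors. Of all genes 7.29% passed 1.5-fold. *Fgfr1*, the main receptor of the streak, was level at 0.00 ± 0.03. *Fgfr2* was at -0.03 ± 0.07, *Fgfr3* at 0.17 ± 0.06 and *Fgfr4* at -0.26 ± 0.07. The *Fgfr4* probes disagreed, with folds of 0.684 and 1.02, as did those of *Fgfr3*, with 0.957 and 1.31. The folds of the *Fgf8* probes were 2.65, 1.68 and 1.57. The first is of a dim probe, at 8.62 in the heterozygote and 21.1 in the mutant, and it raises the mean. The brighter probes of *Fgf8* gave log2 fold changes of 0.75 and 0.65. *Fgfrl1*, which encodes a receptor without a kinase domain, was at 0.37 ± 0.05, and *Klb*, the co-receptor of endocrine FGFs, at -0.32 ± 0.09.

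None of the 22 measured genes of the kinase cascade was 1.5-fold higher or lower, against 7.29% of all genes. In the brightest signal band 0.867% were past 1.5-fold, and 2.52% in the next, so a count of 0 is near these shares. Above 0 were 16 genes and below it 6, against 52.0% of all genes above 0. The median of the cascade was 0.10, or -0.02 without scaling. The genes farthest from 0 were *Cbl*, a ubiquitin ligase that takes receptors down, at -0.44 ± 0.07, the RAF kinase gene *Araf* at 0.32 ± 0.04 (probe folds of 1.06, 1.53 and 1.19), the neurofibromin gene *Nf1* at 0.30 ± 0.06 and the RAS activator gene *Sos2* at 0.27 ± 0.10.

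Of the 9 other dual specificity phosphatases, *Dusp14* was lower by more than 1.5-fold (-0.67 ± 0.12, from 76.7 to 44.5) and none was higher by as much. Of all genes 3.37% were at least 1.5-fold lower and 3.92% at least 1.5-fold higher. *Dusp2* was at 0.52 ± 0.08, *Dusp1* at 0.44 ± 0.06 and *Dusp10* at -0.39 ± 0.06, and the median was 0.15, or -0.13 without a filter on dim probes. Among relatives of the members, *Spry3* was not well above background in either embryo, *Spred3* was at 0.52 ± 0.21 on a dim probe and *Etv1*, the third PEA3 gene, was at 0.14 ± 0.05. *Il17re* was at 0.55 ± 0.25 and *Il17rc* at 0.27 ± 0.14 (probe folds of 0.950 and 1.53), both dim. None of the 5 measured relatives was 1.5-fold higher or lower, against 7.29% of all genes. *Il17rb* was well above background in the heterozygote alone, and at least 1.48-fold lower in the mutant if the dimmest detected signal of that array is taken in its place. Of 15 measured ETS factors, *Etv2*, which directs blood and vessel precursors, was at 0.86 ± 0.06 and *Ehf* at 0.62 ± 0.20. Both were past 1.5-fold on the higher side, as were 3.92% of all genes. *Elk4* was at 0.43 ± 0.06, with unequal probes at folds of 0.998, 1.27 and 1.92, and *Ets2*, a factor of the trophoblast, at -0.41 ± 0.06. The median was 0.04, or -0.07 without scaling. It counts *Elk1*, read at 67245 in the heterozygote by 1 probe, while its other probe was above background in the heterozygote alone.

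Of 17 measured genes on a list of other ERK targets, 13 were above 0. Of the 17, 5 were 1.5-fold higher or more, against 3.92% of all genes, and 1 was as much lower, against 3.37%. The list was chosen with earlier results of these data known, so these counts cannot show an excess among ERK targets. The median of the list was 0.45, or 0.17 with normexp, and 0.03 over the members. The immediate early genes *Egr1*, *Fos*, *Egr2* and *Ier3* lay at 0.73 ± 0.07, 0.74 ± 0.19, 0.72 ± 0.21 and 1.17 ± 0.25. *Egr1* went from 177 to 271, while the other 3 were dim, with signals of 11.5 to 23.4 in the heterozygote. In the dimmest signal band 8.31% of genes were 1.5-fold higher or more. *Lrig3*, at 0.59 ± 0.08, was the other gene past 1.5-fold, and *Gbx2*, a homeobox gene, was the lower one at -0.60 ± 0.16, both named after their values were seen. *Tbx3*, also named after its value was seen, was just inside 1.5-fold at 0.58 ± 0.05, from 1007 to 1389. *Myc* (0.11), *Ccnd1* (-0.08) and *Mcl1* (0.09) were near 0.

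**Figure D4:**
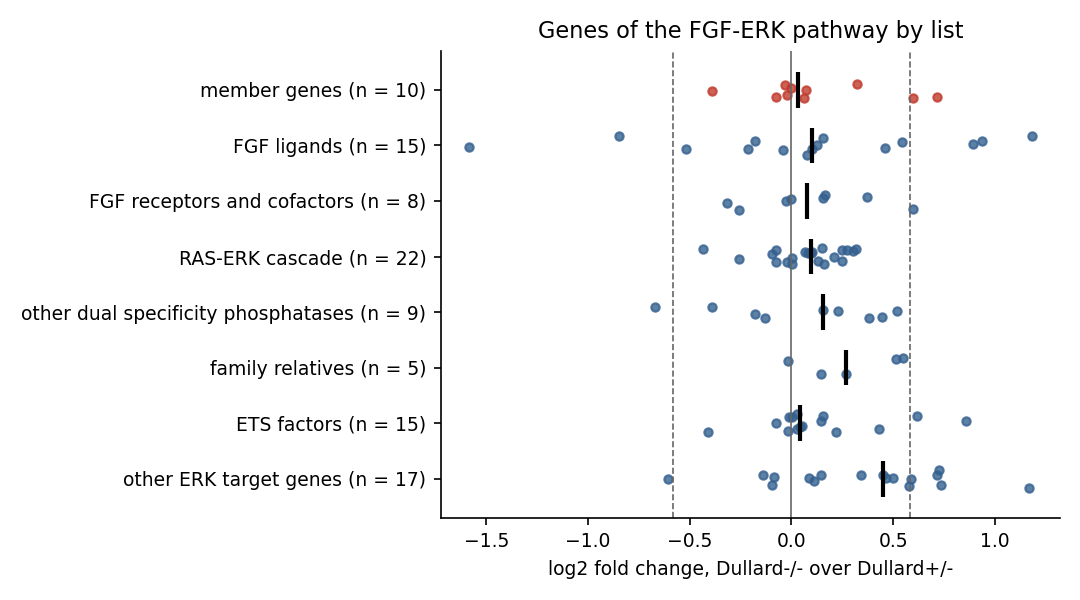
Log2 fold change, mutant over heterozygote (horizontal axis), of the measured genes of each list (points, spread vertically for visibility), with the median of the list as a black bar and dashed lines at 1.5-fold. The median is 0.03 for the members and 0.45 for the other ERK target genes, and the FGF ligands spread from -1.59 to 1.18.

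The RNA came from whole embryos, in which fewer cells of a type and less RNA per cell cannot be told apart. Lists of tissue markers are given beside the members as the sum of scaled levels, which bright probes dominate, and as counts and medians of the genes measured in both embryos. A difference in a sum is therefore not a change shared by its list. The streak and nascent mesoderm list, with 8 of 8 measured, summed to 18.2 in the heterozygote and 25.5 in the mutant, but 4 genes were above 0 and 4 below, with a median of 0.09. *Mixl1* was at 1.39, *Fgf8* at 0.94 and *Eomes* at 0.76, while *T* was at -1.19 and *Msgn1* at -1.88, and *Lefty2* (0.19), *Mesp1* (-0.04) and *Tbx6* (-0.01) were nearer to 0. The epiblast list, with 6 of 6 measured, summed to 571 and 622, or 35.9 and 54.2 without the *Nanog* probe. Most of the latter difference lay in *Fgf5*, from 4056 to 6963, and *Otx2*, from 2277 to 3721. *Sox2* was at 0.44, *Nanog* at 0.09, *Utf1* at 0.07 and *Pou5f1* at -0.06. The *Nanog* probe read 152875 in the heterozygote and 150048 in the mutant, and whether it reads *Nanog* alone was not tested. The node and anterior mesendoderm list, with 4 of 6 measured, summed to 2.64 and 4.64. Most of that difference lay in *Gsc*, from 65.8 to 426. *Foxa2* was at 0.63, *Chrd* at 0.06 and *Foxj1* at -0.002. *Noto* was above background in the heterozygote alone and 2.10-fold lower in the mutant by its own undetected signal, and *Shh* was above background in neither.

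The visceral endoderm list, with 7 of 7 measured, summed to 116 and 112, with 3 genes above 0 and 4 below and a median of -0.002. The list of extraembryonic ectoderm and ectoplacental cone, with 6 of 7 measured and *Tpbpa* above background in neither embryo, summed to 11.7 and 10.4, with 2 above 0 and 4 below and a median of -0.13. Of 5 primitive blood markers 2 were measured, *Gata1* at -1.30 and *Hbb-bh1* at -2.08, and the list summed to 1.86 and 0.715. *Hbb-y* was above background in the heterozygote alone and 1.39-fold lower in the mutant by its own undetected signal. *Hba-x* and *Klf1* were above background in neither. Of 6 genes listed for the maternal decidua 3 were measured, *Pgr* (-0.55), *Des* (0.25) and *Hand2* (0.39), and the list summed to 0.365 and 0.329. *Esr1* was above background in the heterozygote alone, at least 1.88-fold lower in the mutant, *Prl8a2* in neither, and no single probe of *Prl3c1* was above it in both embryos. Of 5 genes listed for maternal blood 1 was measured, *Hba-a1* at -0.95, and the list summed to 1.12 and 0.458. *Hbb-bs* and *Hbb-bt* were above background in the heterozygote alone, at least 2.93-fold and 7.19-fold lower in the mutant, and *S100a8* and *S100a9* in neither. Whether the transcripts on these lists came from the mother or from the embryo was not tested. The part of these tissues in the values of *Il17rd*, *Spry1*, *Spry4* and *Dusp4* was not tested.

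**Figure D5:**
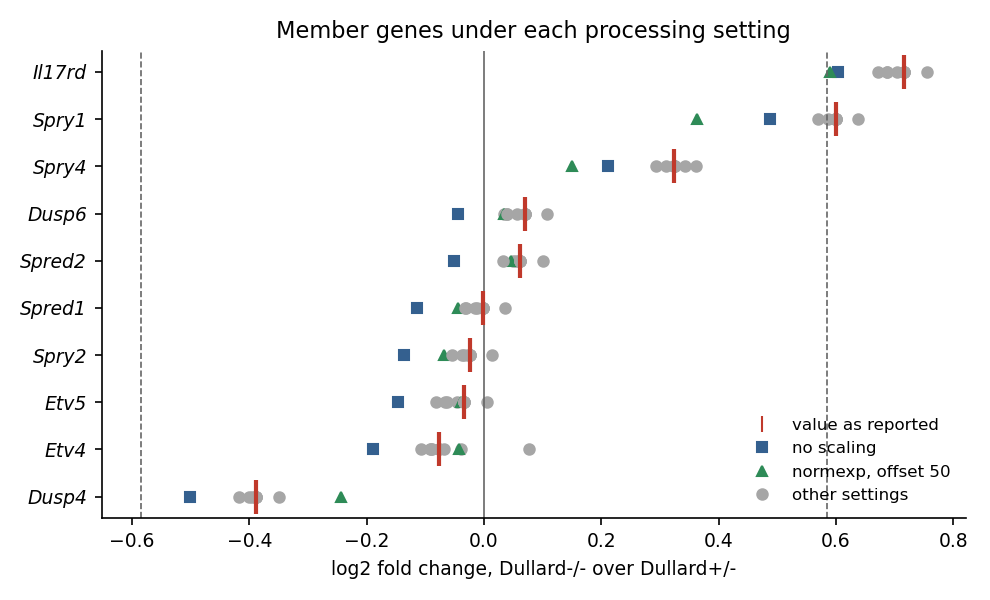
Log2 fold change, mutant over heterozygote (horizontal axis), of the 10 members as reported (bars) and under 11 other ways of processing (symbols), with dashed lines at 1.5-fold. *Il17rd* stays past 1.5-fold in all 11, from 0.59 to 0.75, *Spry1* is inside it in 3, and *Dusp4* stays between -0.50 and -0.24. Settings that only change the filter or the averaging of probes cannot move a member with 1 probe. The other scalings, no scaling and the processed table move all members by nearly the same amount.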

How the data were processed

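For each embryo the authors deposited scanner text made with Agilent Feature Extraction 10.10 (per the submitters' processing notes). These deposited intensity values are spot signals from which the software had subtracted background. They also gave a table of processed intensity values equal to those signals times 4.91 (Dullard+/-) or 5.20 (Dullard-/-), with medians of 189 and 181. The target of that rescaling is not known. The amplification kit and RNA input differ between the paper and the labels. The arrays were read in the same scan.

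Of 43020 spots that are not controls, 206 with an outlier mark were left out, none of them a member's, and no spot was saturated. Among these spots 31242 (Dullard+/-) and 29310 (Dullard-/-) were well above background. The deposited marks of the other columns (0 or 1 per spot) gave these calls. Log2 signals were scaled to the 75th percentile of the array, and probes well above background on both arrays were averaged per gene. RefSeq accessions (GRCm38.p6 gene table) named 30235 spots. The spot error pools the 40 nearest of 281 replicated probes. Precision is limited by having 1 array per genotype.

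The members and the gene lists were chosen with earlier results of these data known. The genes named are all members, the targeted gene, the 4 genes farthest from 0 on each list, *Fgf4*, *Fgf5*, *Fgf8* and *Fgfr1* to *Fgfr4*, beside those marked as chosen later and single genes given for contrast or as tissue markers. Steps were tested on simulated data. Alternatives were scaling to the median, to the 75th percentile of spots above background on both arrays or not at all, quantile normalization, loess (span 0.3), normexp (offset 50) with quantile normalization, the processed table, no filter on dim probes, outlier spots kept, the brightest probe and the mean of linear folds. The columns hold no mean spot signal, so normexp used median signals. The tools were limma 3.58.1 in R 4.3.3, and pandas 2.3.3 with numpy 2.4.6 in Python 3.11.15.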

Additional observations from a re-analysis of the deposited data

How the results depend on the processing

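The median log2 fold change of the 10 members was -0.083 without scaling, where every member moved down by the same amount, and it moved by less than the spot error under the other 10 settings. The number of members at least 1.5-fold higher was 2, and 1 without scaling, with normexp and with the processed table, *Il17rd* in each. The number at least 1.5-fold lower was 0 under every setting. Past 1.5-fold on the higher side were 579 of all genes, against 83 with normexp and 1215 without a filter on dim probes. On the lower side were 498, against 782 without scaling, 38 with normexp and 1737 without the filter. The offset of 50 in normexp pulls dim genes toward 0 by construction, so it does not decide whether a dim member such as *Spry4* differs. Among single members, 4 moved by more than their spot SD with normexp, 1 with the brightest probe (*Etv4*) and 1 with quantile normalization. No paired analysis was possible because each genotype has 1 embryo, and no replicate could be left out.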
